A study of Rattus norvegicus with 9 samples.

Results

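The regional identity transcription factors of the intestine, the proteins that mark and maintain upper, middle and lower gut, were taken as a list of 10 genes: Gata4, Gata5, Gata6, Pdx1, Onecut2, Cdx1, Cdx2, Hoxb9, Hnf4a and Hnf4g. Members were the rows of both expression tables whose symbol was in the list. Of the 10, 8 were matched among 17145 rows in each table, and Onecut2 and Cdx1 were not analysed here. Total RNA was sequenced from the small intestine, labelled ileum, of rats, all of the Otsuka Long-Evans Tokushima Fatty strain, in which obesity and diabetes develop. All were sampled 1 month after surgery; their age is not given in the labels. The RYGB FDG decreased and RYGB FDG increased groups had a Roux-en-Y operation, in which food is led from a small stomach pouch into a limb of the jejunum, and the sham group had a sham operation. FDG, read here as the glucose tracer fluorodeoxyglucose, is not spelled out in the labels, and each of the 3 groups has 3 samples. Nothing in the labels ties samples to separate animals, and p-values therefore cover the spread among these samples, which may be technical.

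An intestinal epithelial cell keeps the identity of its place along the gut through combinations of transcription factors. CDX2 is active throughout the intestine and, in the mouse, its loss turns gut epithelium towards stomach or oesophagus; HNF4A and HNF4G are nuclear receptors that act redundantly on the genes of mature absorptive cells. GATA4 is present in duodenum and jejunum and absent from the terminal ileum, and its loss in mouse jejunum brings out ileal genes there, while GATA5 and GATA6 reach further down; PDX1 marks the duodenum, and posterior HOX proteins such as HOXB9 are used at lower positions.

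The tables hold FPKM, a fragment count divided by transcript length and by the mapped fragments of its library, so that levels can be compared between genes. The RYGB table sets FDG-decreased beside FDG-increased ileum, and the sham table sets FDG-increased beside sham ileum. Columns of a pair of FDG-increased libraries held the same values in both tables up to constant factors of 1.023 and 1.0204, under different replicate numbers. The 12 columns thus held 10 distinct libraries, against 9 samples in the labels. The FDG-increased libraries are called A (sham table alone), B and C (both tables) and D (RYGB table alone); B, C and D carry the numbers 1, 2 and 3 in the RYGB table. The sum of FPKM ranged from 465697 to 864511 over the columns, and 10332 to 10892 genes reached 1 FPKM. Read depth is unknown, because no counts lie behind the values. An exact 0 can also be a failed estimate: Col1a2, a collagen chain, was listed at 0 in all 10 libraries while Col1a1 stood at 14.6 to 45.0 FPKM, so 0 is given below as listed.

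The label ileum was set against ileal markers before any comparison. Fabp6, which binds bile acids inside ileal cells, stood at 5516 to 18143 FPKM in the FDG-decreased libraries and at 7374 to 22955 FPKM in the FDG-increased libraries (all on the scale of the sham table), against 8375 and 11347 FPKM in sham 2 and 3. Sham 1 had 22.6 FPKM. Slc10a2, the uptake transporter for bile acids in the ileum, stood there at 2.603 FPKM, against 67.3 and 120 FPKM in sham 2 and 3. Of the 10 matched genes listed as ileal, sham 1 was below both other sham libraries in 7, and was the lowest of all libraries in 6. These 6 were Fabp6, Slc10a2, Slc51a, Pyy, Gcg and Fgf19 (listed at 0). It was above both in Cubn (73.2 FPKM), Amn (63.7 FPKM) and Asah2 (232 FPKM), against at most 32.0, 30.5 and 27.5 FPKM in sham 2 and 3, and was the highest of all libraries in Amn and Asah2. The genes listed as upper intestine summed to 13384 FPKM in sham 1, against 2476 and 2510 FPKM in sham 2 and 3. Sham 1 thus goes against its label by Fabp6 and Slc10a2, less so by Slc51a, Pyy and Gcg, and not by every gene of the ileal list. Differences from sham ileum are given below with and without it where that moves them by over 1.5 times.

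Gata4, the factor of the upper small intestine, varied more than any other member over the 10 distinct libraries, with an SD of 2.19 on the log2(FPKM + 1) scale. In the RYGB table it stood at 6.16, 1.01 and 26.4 FPKM in FDG-decreased 1, 2 and 3, against 0 (listed), 0.0410 and 0.590 FPKM in FDG-increased B, C and D. All 3 FDG-decreased libraries thus lay above all 3 FDG-increased libraries of that table. In the sham table it stood at 0.176, 0 (listed) and 0.0419 FPKM in FDG-increased A, B and C, against 59.8, 9.82 and 0.0853 FPKM in sham 1, 2 and 3. The sham libraries spanned almost the whole range by themselves, and sham 3 lay among the FDG-increased libraries. In tissue RNA, fewer cells that express a gene and less RNA per cell cannot be told apart.

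Hoxb9, a posterior homeobox factor, came next in spread, with an SD of 2.06 on the same scale. In the RYGB table it stood at 0.477, 2.01 and 0.0740 FPKM in FDG-decreased 1, 2 and 3, against 34.8, 31.9 and 0.608 FPKM in FDG-increased B, C and D. Libraries B and C were high and D was not, so the groups overlapped. In the sham table Hoxb9 stood at 8.86, 35.6 and 32.5 FPKM in FDG-increased A, B and C, against 0.136, 0 (listed) and 9.83 FPKM in sham 1, 2 and 3. Sham 3 lay above library A, so these groups overlapped too.

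**Figure D1:**
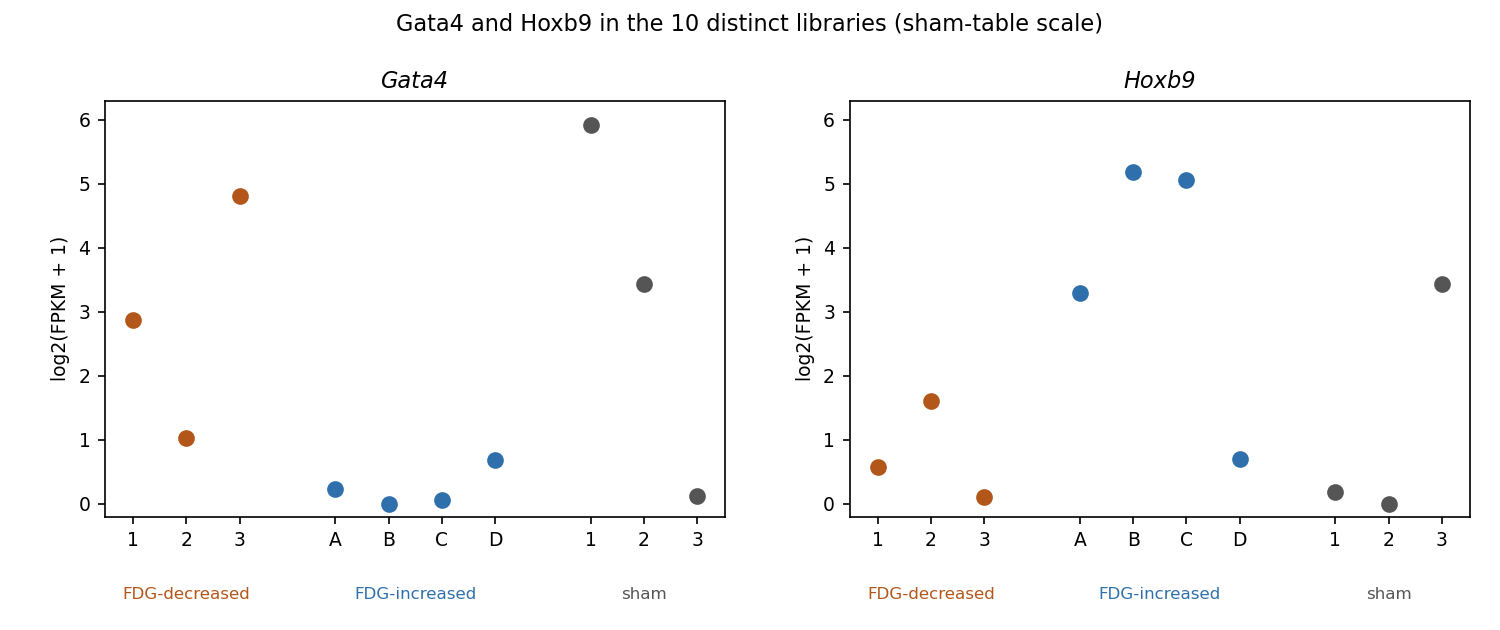
Levels of Gata4 (left) and Hoxb9 (right) as log2(FPKM + 1) in each of the 10 distinct libraries, with RYGB-table libraries scaled to the sham table; 1 point is 1 library, coloured by group, and no mean is drawn. The FDG-increased points lie near 0 for Gata4, and Hoxb9 is highest in libraries B and C, while the sham points are spread over most of the range for Gata4.

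No library reached 2 FPKM in both of these factors. Sham 1 had the most Gata4 of all libraries and 0.136 FPKM of Hoxb9. Library B had the most Hoxb9 and Gata4 listed at 0. FDG-decreased 3, next after sham 1 in Gata4, had 0.0740 FPKM of Hoxb9, and library C, next after B in Hoxb9, had 0.0410 FPKM of Gata4. Sham 3 combined 0.0853 FPKM of Gata4 with 9.83 FPKM of Hoxb9. Library D was low in both, with 0.590 FPKM of Gata4 and 0.608 FPKM of Hoxb9, and FDG-decreased 2 had intermediate values of both, 1.01 and 2.01 FPKM.

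Gata5 and Gata6, the GATA factors of the whole small intestine, were present in every library, at 22.5 to 56.0 FPKM. Gata5 stood at 45.9, 32.4 and 37.5 FPKM in FDG-decreased 1, 2 and 3, against 31.9, 23.7 and 28.3 FPKM in FDG-increased B, C and D. These groups did not overlap. Gata5 in the sham table stood at 39.6, 32.7 and 24.2 FPKM in FDG-increased A, B and C, against 56.0, 33.3 and 39.8 FPKM in sham 1, 2 and 3, where the groups overlapped and sham 1 was the highest library.

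Gata6 stood at 35.2, 22.5 and 27.8 FPKM in FDG-decreased 1, 2 and 3, against 35.9, 29.6 and 24.7 FPKM in FDG-increased B, C and D. In the sham table it stood at 36.9, 36.7 and 30.2 FPKM in FDG-increased A, B and C, against 34.5, 23.5 and 38.7 FPKM in sham 1, 2 and 3. Gata6 overlapped between groups in both tables, and its lowest and highest libraries, FDG-decreased 2 and sham 3, stood at 22.5 and 38.7 FPKM.

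Pdx1, the factor of duodenum and pancreas, was at or near 0 throughout. It stood at 0 (listed), 0.0565 and 0.0533 FPKM in FDG-decreased 1, 2 and 3, and D was the only FDG-increased library of the 4 above 0, at 0.0518 FPKM. Sham 1 had the highest value, 0.501 FPKM, against 0.0578 FPKM in sham 2 and a listed 0 in sham 3. Its mean lay under 1 FPKM in both tables, so it was not tested. Of 8 genes listed as pancreatic, Prss1, Pnlip, Ins1 and Ins2 were listed at 0 in all 10 libraries. Cela1 and Cel, of the same list, stood at 5.04 to 11.3 FPKM and 0.0797 to 0.323 FPKM on the scale of the sham table. Cpa1 was above 0 only in FDG-decreased 1, at 0.0720 FPKM, and Ptf1a only in library B, at 0.119 FPKM.

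Cdx2, the factor that sets intestinal identity, was present in every library. It stood at 89.5, 89.8 and 85.9 FPKM in FDG-decreased 1, 2 and 3, against 103.9, 86.7 and 78.9 FPKM in FDG-increased B, C and D. The FDG-decreased values lay inside the FDG-increased range. Cdx2 in the sham table averaged 100.6 ± 10.6 FPKM in FDG-increased ileum and 94.6 ± 31.3 FPKM in sham ileum (SD, n = 3 each). The sham values were 129.7, 69.6 and 84.4 FPKM in sham 1, 2 and 3, the highest and the lowest of all libraries among them.

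Hnf4a and Hnf4g, the nuclear receptors of absorptive cells, were the members with the highest levels. Hnf4a averaged 188 ± 28.5 FPKM in FDG-decreased and 196 ± 38.6 FPKM in FDG-increased ileum of the RYGB table (SD, n = 3 each). In the sham table it averaged 204 ± 32.8 FPKM in FDG-increased ileum and 179.8 ± 24.7 FPKM in sham ileum (SD, n = 3 each). Over the 10 libraries, on the scale of the sham table, Hnf4a lay between 155 and 231 FPKM, a smaller spread (SD 0.22 on the log2 scale) than any other tested member.

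Hnf4g stood at 161, 213 and 127 FPKM in FDG-decreased 1, 2 and 3, against 128, 187 and 107 FPKM in FDG-increased B, C and D. In the sham table it stood at 109.9, 131 and 191 FPKM in FDG-increased A, B and C, against 171, 100.1 and 73.3 FPKM in sham 1, 2 and 3. The groups overlapped in both tables. Hnf4g varied more than Hnf4a, with an SD of 0.47 on the log2 scale.

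**Figure D2:**
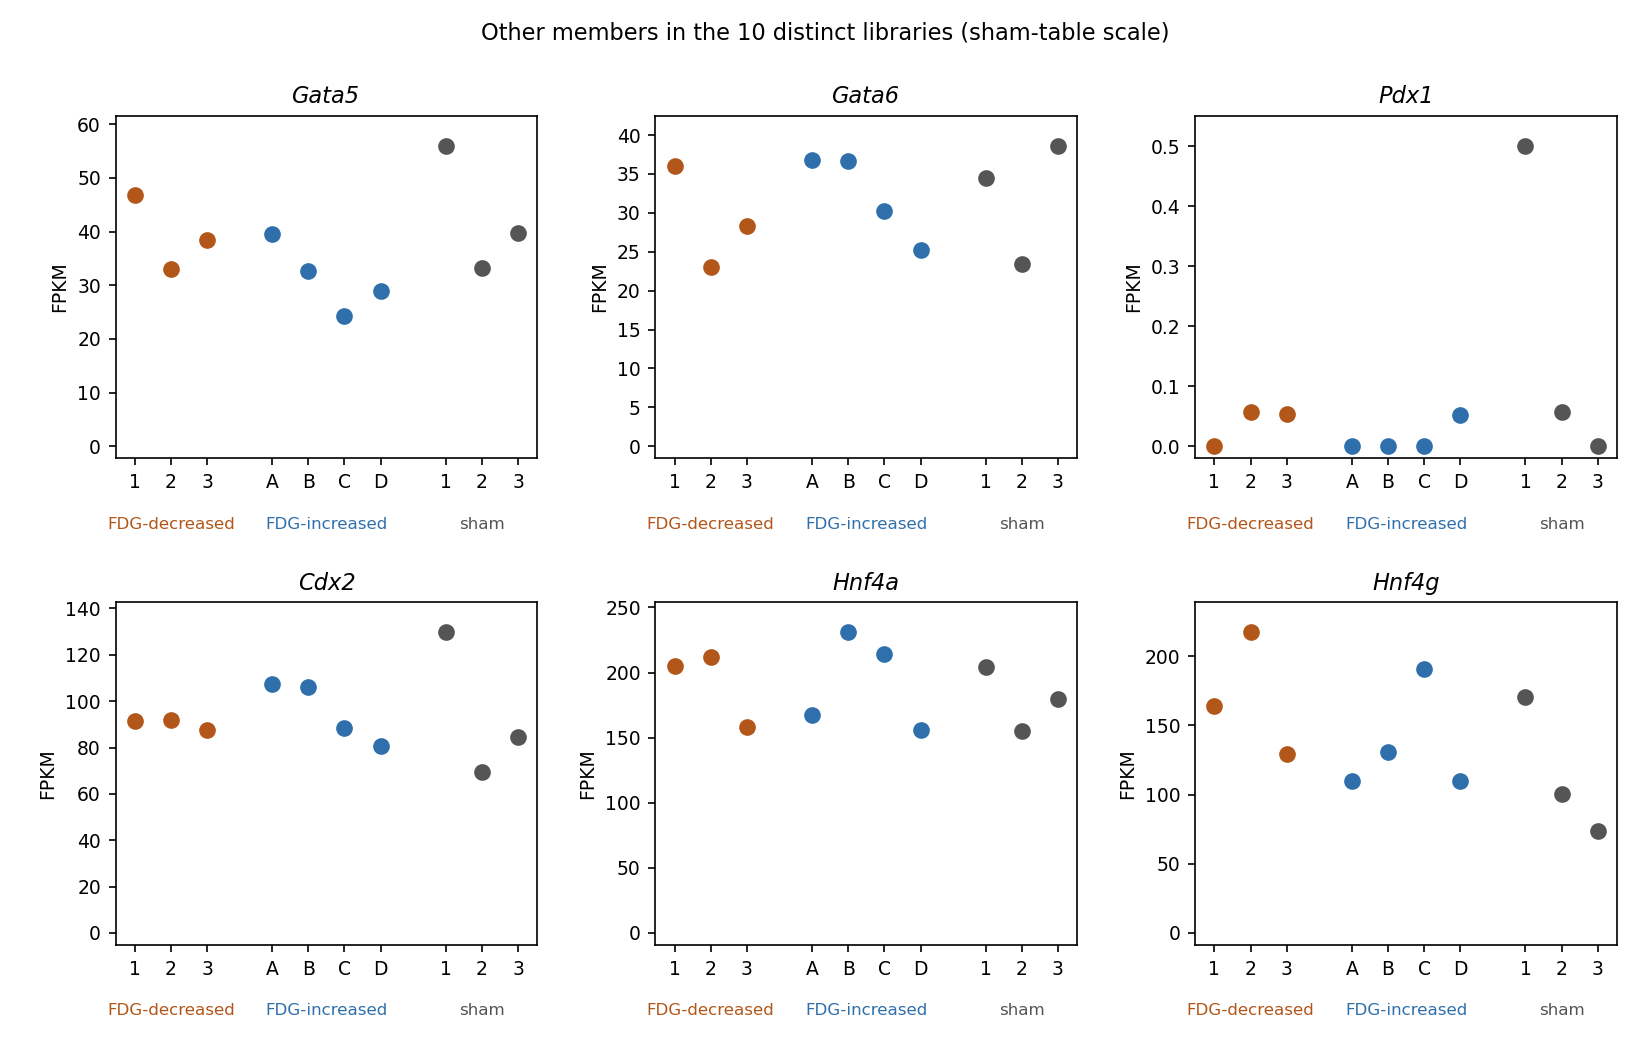
FPKM of Gata5, Gata6, Pdx1, Cdx2, Hnf4a and Hnf4g in each of the 10 distinct libraries on the scale of the sham table, 1 point per library, coloured by group; each panel has its own axis. All members but Pdx1 are present in every library, and sham 1 is the highest point for Gata5, Pdx1 and Cdx2.

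FDG-decreased ileum was set against FDG-increased ileum within the RYGB table, and no member passed the test. The 7 members with a mean of at least 1 FPKM were tested with limma on log2(FPKM + 1) beside all 10739 genes that met the same filter, and a gene was called at a Benjamini-Hochberg adjusted p under 0.05. The count of members called was 0 of 7, against 0% of all genes. At an unadjusted p under 0.05 limma gave 2 of 7 members, against 1.02% of all genes. They were Gata4, with a log2 difference of 2.63 (SE 0.832, limma adjusted p = 1), and Hoxb9, with -2.88 (SE 1.14, limma adjusted p = 1). Both passed the filter on low values through their high libraries, so these counts do not weigh as a share of the list. The Gata4 and Gata5 groups did not overlap, both higher in FDG-decreased ileum, which held for 1.95% of all genes. Gata4 passed the filter through its FDG-decreased libraries, so that share does not weigh for it.

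Same-numbered libraries of the RYGB table deviated together, so the differences were also read by pair; per the labels, pairs 1 and 2 each shared a sequencing lane and pair 3 did not. Gata4 was higher in FDG-decreased ileum in 3 of 3 pairs, by 2.84, 0.95 and 4.11 on the log2 scale, against 17.2% of all genes higher in every pair. Gata5 was higher by 0.51, 0.43 and 0.40, and Hnf4g by 0.32, 0.18 and 0.24, in pairs 1, 2 and 3. Hoxb9 was lower in 3 of 3 pairs, with log2 differences of -4.60, -3.45 and -0.58, against 12.7% of all genes lower in every pair. Gata4 and Hoxb9 passed the filter through their high libraries, so these shares do not weigh for them. Gata6, Cdx2 and Hnf4a differed in sign between pairs. With the pair as a block limma called 122 genes in place of 0, or 1.14% of all genes, and still 0 of the 7 members. Blocked limma adjusted p was 0.463 for Gata4, 0.664 for Hoxb9, 0.215 for Gata5 and 0.621 for Hnf4g.

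Without the pair as a block, the other members had intervals that leave room for moderate changes. The 95% interval of the log2 difference of FDG-decreased minus FDG-increased ileum was -0.73 to 0.70 for Cdx2, -0.86 to 0.76 for Hnf4a, -0.79 to 0.63 for Gata6 and -0.65 to 1.14 for Hnf4g. With the pair as a block the intervals were narrower, at -0.31 to 0.28 for Cdx2, -0.34 to 0.23 for Hnf4a and -0.41 to 0.25 for Gata6. For Hnf4g the blocked interval was -0.03 to 0.53. For Gata5 it was 0.15 to 0.74, against -0.23 to 1.13 without the block. A missed threshold therefore does not show equal levels. The Hoxb9 difference was -4.35 without library D, with a limma adjusted p of 0.0931, and its adjusted p ranged from 0.0931 to 1 over all alternatives. The Gata4 difference was 1.68 without FDG-decreased 3.

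FDG-increased ileum was set against sham ileum within the sham table, over 10801 genes, and again no member passed. Limma with Benjamini-Hochberg adjustment called 0 of 7 members, against 0.037% of all genes. At an unadjusted p under 0.05 it gave 1 of 7, against 7.84% of all genes. That member was Hoxb9, with a log2 difference of 3.31 (SE 0.918, limma adjusted p = 0.472). Gata4 had a log2 difference of -3.06 (SE 1.34, limma adjusted p = 0.655). The groups overlapped for all 7 members, whereas 15.1% of all genes had groups that did not overlap.

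Single libraries moved both values. Without sham 3, Hoxb9 had a log2 difference of 4.43 and a limma adjusted p of 0.0478, which is a call; its adjusted p ranged from 0.0478 to 1.00 over all alternatives. Without sham 1, the library low in Fabp6 and Slc10a2, Hoxb9 differed by 2.80 (limma adjusted p = 0.509) and Gata4 by -1.68 (limma adjusted p = 0.570). Without sham 3 Gata4 differed by -4.58 (limma adjusted p = 0.0617). Per the labels all sham samples were sequenced on lane 7, against 1 FDG-increased sample, the others being on lane 4. Within lane 7 the log2 difference of Hoxb9 was 3.99 with library B or 2.10 with library A as that sample (limma adjusted p = 1.00 for each), and that of Gata4 was -3.16 or -2.93. The FDG-increased library outside this comparison, D, had Hoxb9 at 0.608 FPKM, inside the sham range, and Gata4 at 0.590 FPKM.

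The remaining members had smaller differences between FDG-increased and sham ileum. The log2 difference was -0.40 for Gata5, 0.12 for Gata6, 0.13 for Cdx2, 0.18 for Hnf4a and 0.37 for Hnf4g, with limma adjusted p between 0.799 and 0.954. The median over all genes tested was 0.13 higher in FDG-increased ileum. Their 95% intervals were -1.13 to 0.33 for Gata5, -0.54 to 0.79 for Gata6, -0.63 to 0.90 for Cdx2, -0.53 to 0.89 for Hnf4a and -0.54 to 1.28 for Hnf4g. Without sham 1 the log2 differences were -0.20 for Gata5, 0.19 for Gata6, 0.38 for Cdx2, 0.28 for Hnf4a and 0.70 for Hnf4g, with limma adjusted p between 0.582 and 0.888. The differences of these members thus depended on that library in size and not in direction. Markers of epithelium lay the same way as Gata6, Cdx2, Hnf4a and Hnf4g, and not as Gata5. All 8 (Epcam, Vil1, Cdh1, Cdh17, Krt8, Krt20, Lgals4 and Cldn7) were above 0, with a median log2 difference of 0.56. Their summed level was 7139 to 9674 FPKM in libraries A, B and C, against 4637 to 7483 FPKM in sham libraries. Library D, outside this comparison, had 5000 FPKM, inside the sham range. With libraries shifted to the same epithelial level, Gata6, Cdx2, Hnf4a and Hnf4g had log2 differences of -0.41, -0.40, -0.36 and -0.16, so their direction against sham ileum depends on the scaling. Gata5 kept its direction under that shift, at -0.94 (95% interval -1.71 to -0.17, limma adjusted p = 0.383), beside a median of -0.41 over all genes.

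**Figure D3:**
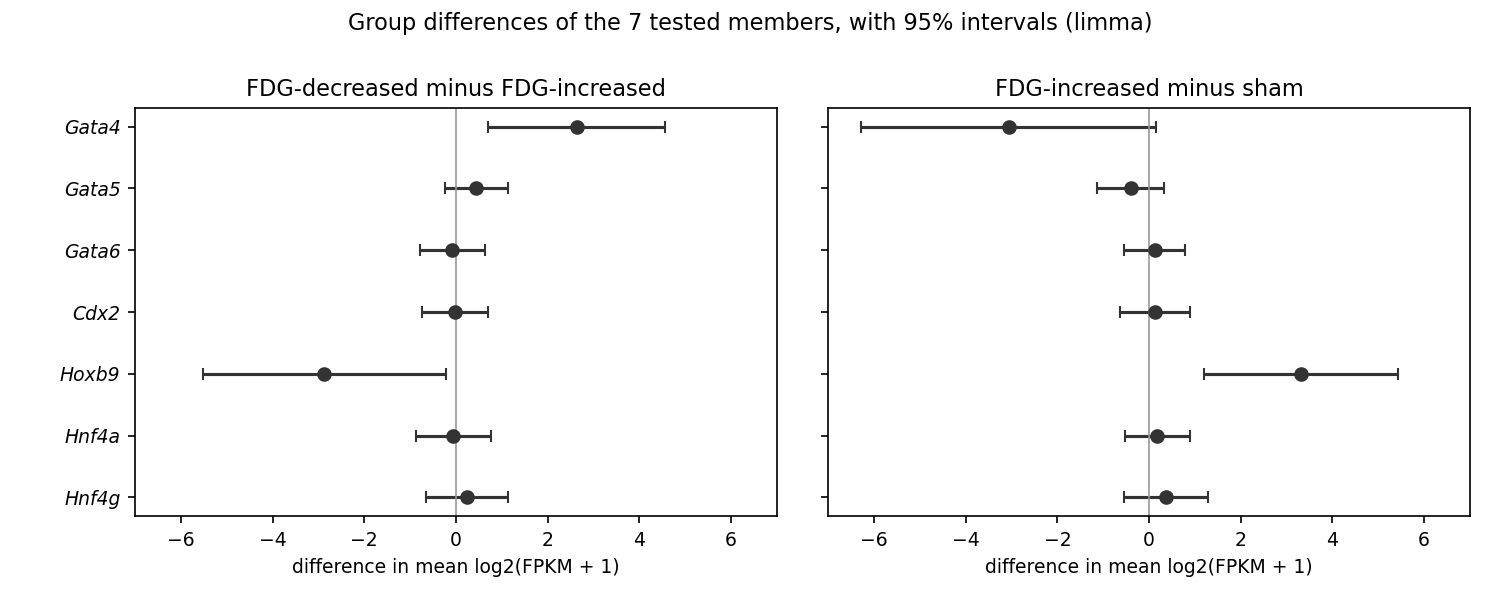
Log2 differences of the 7 tested members on the log2(FPKM + 1) scale, with 95% limma intervals, for FDG-decreased minus FDG-increased ileum (left, RYGB table) and FDG-increased minus sham ileum (right, sham table). Gata4 and Hoxb9 have the widest intervals and point in opposite directions in each panel, and none of the 7 passed the adjusted threshold.

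Both comparisons share libraries B and C as FDG-increased samples, so their values are not independent of each other. For FDG-decreased against sham ileum, which stand in separate tables, the RYGB table was multiplied by the common factor of 1.0217 and nothing was tested. The mean log2(FPKM + 1) of Gata4 was 2.90 ± 1.89 in FDG-decreased and 3.16 ± 2.91 in sham ileum (SD, n = 3 each), and that of Hoxb9 was 0.76 ± 0.77 in FDG-decreased and 1.21 ± 1.93 in sham ileum (SD, n = 3 each). Both differences were smaller than the spread within either group. Hnf4g had the largest difference of a member in this pair of groups, at 7.39 ± 0.37 in FDG-decreased and 6.77 ± 0.61 in sham ileum on the same log2 scale (SD, n = 3 each). Without sham 1 the FDG-decreased minus sham difference of Gata4 was 1.12 in place of -0.26, that of Hoxb9 -0.95 in place of -0.44, and that of Hnf4g 0.95 in place of 0.62. Gata5, Cdx2 and Pdx1 changed sign, to 0.10, 0.23 and 0.01 without sham 1, against -0.10, -0.02 and -0.17 with it. The mean log2 level of Gata4 was lowest in the 4 FDG-increased libraries, at 0.24, and whether FDG-decreased or sham ileum stood highest depended on sham 1: the sham mean was 3.16 with it and 1.78 without it, beside 2.90 in FDG-decreased ileum.

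Genes whose profile was most like that of the 3 most variable members were sought among 10790 genes over the 10 libraries, by the root mean square difference of log2(FPKM + 1) after each profile was shifted to mean 0. For Gata4 they were Fam151a (0.929), Enpp7, the alkaline sphingomyelinase of the gut lumen (0.949), and Gip, which encodes an incretin hormone secreted by K cells (0.958). Enpp7 and Gip were both also on the list of upper intestine genes. Enpp7 stood at 199, 14.8 and 0.582 FPKM in sham 1, 2 and 3. The order of the sham libraries was the same for Gata4, Enpp7 and Gip. The choice of these genes by likeness over the same libraries favours such an order, so it is no separate result.

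For Hoxb9 the nearest profiles included Plau, the protease urokinase (0.772), and Hoxb7, a homeobox factor of the same cluster (0.860). Hoxb7 stood at 2.31, 17.6 and 24.7 FPKM in A, B and C, against 1.04, 0.805 and 4.27 FPKM in sham 1, 2 and 3. Hoxb7 and Hoxb9 were thus both highest in B and C, which the choice of Hoxb7 by likeness to Hoxb9 favours. They lie close together on chromosome 10 in the RefSeq annotation, with Hoxb8 between them, and it is not given in the sources used here whether counting used the strand of reads. For Hnf4g the nearest profiles were Slc35b1 (0.0520), a carrier of the endoplasmic reticulum, Gnpda1 (0.0662), an enzyme of amino sugar metabolism, and Uqcrh (0.102), a subunit of respiratory complex III; the smaller differences go with the smaller spread of Hnf4g.

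**Figure D4:**
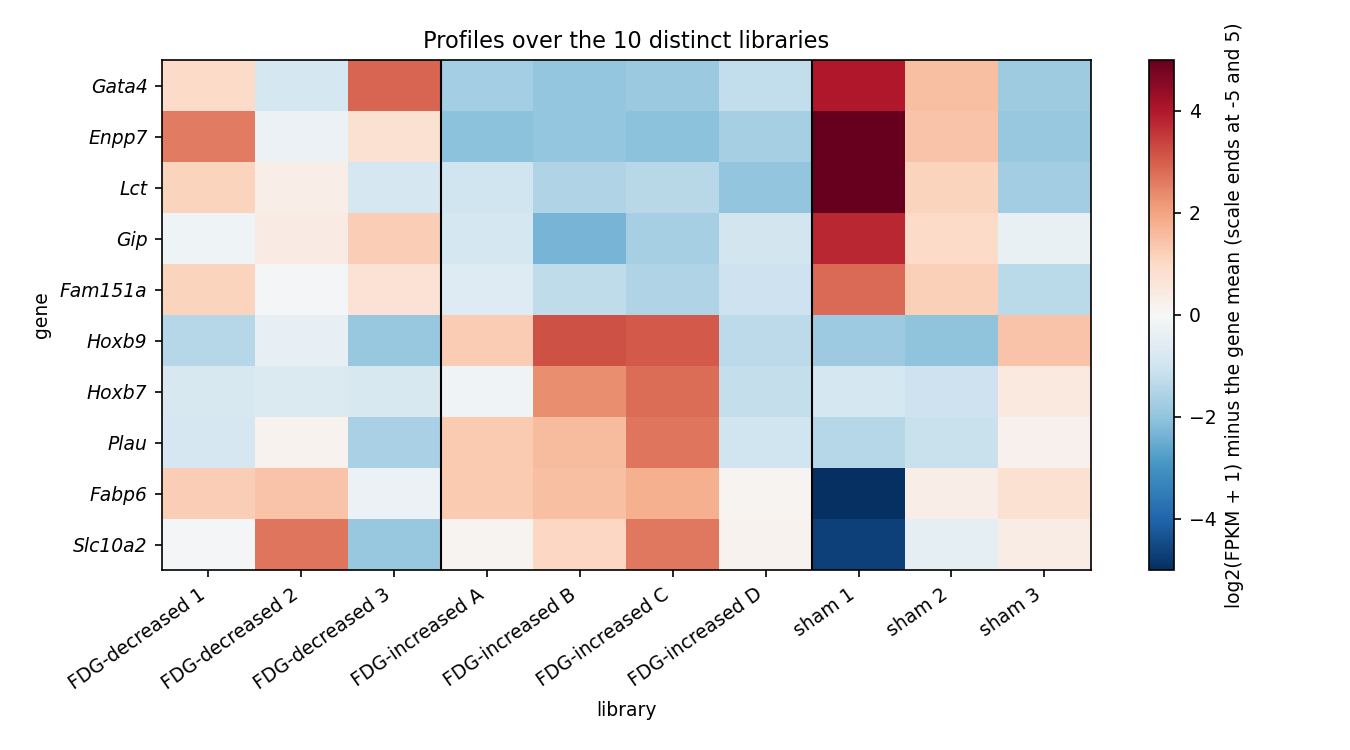
Profiles of 10 genes over the 10 distinct libraries, as log2(FPKM + 1) minus the mean of the gene; colours end at -5 and 5, and black lines part the FDG-decreased, FDG-increased and sham libraries. Gata4, Enpp7, Lct, Gip and Fam151a are highest in sham 1, Hoxb9, Hoxb7 and Plau are highest in libraries B and C, and Fabp6 and Slc10a2 are lowest in sham 1. Over these same libraries Enpp7, Gip and Fam151a were the profiles nearest to Gata4, and Hoxb7 and Plau were among those nearest to Hoxb9.

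Genes of the upper intestine were listed as the readout of Gata4-expressing gut, and limma called 0 of the 14 tested in either comparison. In FDG-decreased against FDG-increased ileum 11 of 14 lay above 0, with a median log2 difference of 0.77 against 0.02 over all genes. At an unadjusted p under 0.05 limma gave 4 higher and 0 lower, beside 0.363% of all genes higher. The 4 were Gip, Lct, Enpp7 and Slc46a1. Lct, Enpp7 and Slc46a1 were under 1 FPKM in B, C and D, and passed the filter on low values through their FDG-decreased libraries. The count therefore does not weigh as a share of the list. The list was also chosen with earlier results of these data known. Its 11 of 14 above 0 and its median are therefore no independent readout of Gata4. Gip had 4.15, 6.89 and 12.9 FPKM in FDG-decreased 1, 2 and 3, against 0.200, 0.887 and 2.17 FPKM in libraries B, C and D. Lct, the lactase of the upper intestine, had 8.40, 4.36 and 1.39 FPKM in FDG-decreased 1, 2 and 3, against 0.521, 0.683 and 0.128 FPKM in B, C and D. For both genes the groups did not overlap.

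With the pair as a block limma called 2 of the 14 upper intestine genes, both higher in FDG-decreased ileum, beside 1.14% of all genes called in either direction. Gip was higher by 2.10 on the log2 scale (blocked limma adjusted p = 0.000318) and Lct by 1.795 (blocked limma adjusted p = 0.0190). Lct, under 1 FPKM in B, C and D, passed the filter through its FDG-decreased libraries, so this count does not weigh as a share of the list either. The highest genes of the list, Fabp1, which binds fatty acids, Apoa4, an apolipoprotein of chylomicrons, and Cyp3a9, a drug-metabolising enzyme, had log2 differences of 0.76, 2.42 and 0.54 and were not called with the block.

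In FDG-increased against sham ileum the median of the 14 upper intestine genes was -0.40, against 0.13 over all genes, with 6 above and 8 below 0. Gip had 2.29, 0.204 and 0.905 FPKM in A, B and C, against 81.2, 10.7 and 3.70 FPKM in sham 1, 2 and 3. Lct had 1.22, 0.533 and 0.697 FPKM in A, B and C, against 253, 8.60 and 0.317 FPKM in sham 1, 2 and 3. The Gip groups did not overlap and the Lct groups did. The log2 difference of Gip was -3.07 (SE 0.931, limma adjusted p = 0.517), and -1.92 without sham 1 (limma adjusted p = 0.476). That of Lct was -3.04, and -0.99 without sham 1. The median of the 14 genes lay on the other side of 0 without sham 1, at 0.43 against 0.15 over all genes, with 8 above and 6 below 0.

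Of the genes listed as ileal, 10 were tested and limma called 0 in either comparison. In FDG-decreased against FDG-increased ileum the median log2 difference was -0.18 against 0.02 over all genes, and Fabp6, Slc51a and Slc10a2, which carry bile acids, had log2 differences of -0.34, -0.42 and -1.04. With the pair as a block, limma called 2 of the 10 higher in FDG-decreased ileum, beside 1.14% of all genes called in either direction. They were Cubn, a receptor for vitamin B12 bound to its carrier, by 2.03 (blocked limma adjusted p = 0.00555), and Asah2, a ceramidase, by 2.80 (blocked limma adjusted p = 0.00555). In FDG-increased against sham ileum the median log2 difference of the 10 was 1.45 against 0.13 over all genes, with 8 above 0. Fabp6 had a log2 difference of 3.88 there (SE 2.30, limma adjusted p = 0.742), and 0.98 without sham 1 (limma adjusted p = 0.481). Slc10a2 had 2.85, and 1.29 without sham 1. The median of the 10 was 1.096 without sham 1, with 7 above 0.

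Other transcription factors of the gut gave a mixed picture, and limma called 0 of 13 tested in either comparison. Creb3l3, a membrane-bound factor of lipid metabolism, Nr1h4, the bile acid receptor FXR, and Nr5a2, the receptor LRH-1, had the highest levels. Creb3l3 stood at 328, 177 and 178 FPKM in FDG-decreased 1, 2 and 3, against 176, 145 and 51.1 FPKM in B, C and D. Those groups did not overlap, as was so, in the higher direction, for 1.95% of all genes. In the sham table Creb3l3 stood at 129, 180 and 148 FPKM in A, B and C, against 418, 66.3 and 71.6 FPKM in sham 1, 2 and 3. Its log2 difference of FDG-increased minus sham ileum was 0.26, and 1.12 without sham 1. Nr1h4 had a log2 difference of -0.59 in FDG-decreased against FDG-increased ileum and of 1.239 in FDG-increased against sham ileum, and Nr5a2 of 0.24 and 0.51. Without sham 1 the difference from sham ileum was 0.88 for Nr1h4 and 0.32 for Nr5a2. With the pair as a block Prdm1, a transcriptional repressor, was lower by 0.96 on the log2 scale in FDG-decreased ileum (blocked limma adjusted p = 0.0332). It was the only gene of this list to be called, beside 1.14% of all genes called in either direction.

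Of the other Hox genes 24 were matched and 6 of these were listed at 0 in every library, Hoxb13 and Hoxa9 among them. Limma tested 4 in the RYGB table and 6 in the sham table, and called 0 in each. Hoxb7 had a log2 difference of -2.07 in FDG-decreased against FDG-increased ileum and of 2.12 in FDG-increased against sham ileum (limma adjusted p = 1 and 0.555). Hoxc8 and Hoxb4, the next in level, differed by 0.11 and -0.07 in the RYGB comparison and by 0.13 and -0.01 in the sham comparison, or by -0.23 and -0.21 without sham 1. Hoxc8 had 4.30 and 8.08 FPKM in libraries B and C, against 2.52 to 6.78 FPKM in sham libraries, and C was the highest of the 10 libraries. Hoxb8 and Hoxb5, of the same cluster as Hoxb9 and named after their values were seen, were low. Hoxb8 had 1.52 and 1.25 FPKM in B and C, its highest values, against at most 1.103 FPKM in sham libraries. Hoxb5 had 3.74 and 1.92 FPKM in B and C, against 0.802 to 3.04 FPKM in sham libraries, and its log2 difference of FDG-decreased minus FDG-increased ileum was -0.76 (limma adjusted p = 1). The GATA factors of blood cells were low: Gata2 and Gata3 had their highest values at 2.66 and 1.71 FPKM, and Gata1 was listed at 0 in every library.

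Promoter sequences are shown for 4 genes that stood apart with Gata4 or against it across the sham libraries, Lct and Gip from the upper intestine and Fabp6 and Slc10a2 from the ileum. They are the 250 bases before the transcription start in RefSeq, build GRCr8, written 5′ to 3′ on the strand of the gene. Capitals mark GATAA, the core bound by GATA factors, and TTTAT, a core shared by CDX and posterior HOX factors, on either strand. No promoter entry was matched for Gata4, Gata5, Hoxb9 or Hnf4g. The Lct stretch is chr13:42376873-42377122 on the minus strand and the Gip stretch chr10:81464820-81465069 on the plus strand. The Fabp6 stretch is chr10:28569728-28569977 on the minus strand and the Slc10a2 stretch chr16:91087839-91088088 on the plus strand.
Lct: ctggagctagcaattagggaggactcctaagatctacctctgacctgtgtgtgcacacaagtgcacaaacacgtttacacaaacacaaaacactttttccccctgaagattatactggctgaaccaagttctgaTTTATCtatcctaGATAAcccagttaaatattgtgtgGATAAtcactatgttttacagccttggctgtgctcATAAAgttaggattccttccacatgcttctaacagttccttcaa
Gip: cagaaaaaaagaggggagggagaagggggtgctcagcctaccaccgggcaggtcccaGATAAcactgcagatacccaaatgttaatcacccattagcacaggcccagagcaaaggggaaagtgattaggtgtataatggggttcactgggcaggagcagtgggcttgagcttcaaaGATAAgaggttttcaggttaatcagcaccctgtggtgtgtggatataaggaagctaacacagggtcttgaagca
Fabp6: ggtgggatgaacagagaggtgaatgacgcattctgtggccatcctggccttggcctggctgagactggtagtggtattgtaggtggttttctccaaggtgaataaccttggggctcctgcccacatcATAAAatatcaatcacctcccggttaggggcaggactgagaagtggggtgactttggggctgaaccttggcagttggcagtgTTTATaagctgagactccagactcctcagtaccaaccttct
Slc10a2: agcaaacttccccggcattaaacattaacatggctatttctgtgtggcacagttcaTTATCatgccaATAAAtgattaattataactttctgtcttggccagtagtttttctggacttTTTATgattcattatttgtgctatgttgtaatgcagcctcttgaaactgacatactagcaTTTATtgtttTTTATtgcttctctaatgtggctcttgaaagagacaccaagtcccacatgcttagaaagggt

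GATAA was found 3 times before Lct, 2 times before Gip, 0 times before Fabp6 and 1 time before Slc10a2, counting both strands. TTTAT was found 2, 0, 2 and 4 times in the same order, and 4 bases before Lct belong to both motifs. GATAA was in 5 of 13 upper intestine promoters (38.5%) and in 3 of 10 ileal promoters (30.0%), against 23.5% of all 33469 promoters of that length. TTTAT was in 4 of 13 (30.8%) and 3 of 10 (30.0%), against 39.3% of all promoters. A match describes letters in this window and is not evidence of binding.

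Markers of other cell types were summed per library beside these values. Smooth muscle markers, whose tissue also expresses GATA and HOX factors, summed to 1078 and 1026 FPKM in libraries B and C, inside the 790 to 1963 FPKM of the 10 libraries, and to 1515 and 1963 FPKM in FDG-decreased 3 and D. Immune markers were lowest in FDG-decreased 3 and D, at 10.3 and 10.5 FPKM, against 27.98 to 126 FPKM elsewhere. Adipocyte markers were highest in sham 2, at 457 FPKM, against 44.7 to 141 FPKM elsewhere, and sham 2 was also the lowest library in Cdx2. Their part in the members' values was not tested. Stomach markers summed to at most 0.290 FPKM with Gkn1 and Tff1 listed at 0 in every library, and Hoxb13, a colonic homeobox gene, was listed at 0 throughout.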

How the data were processed

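Total RNA libraries were made from flash frozen tissue with a stranded kit that depletes ribosomal RNA, per the labels' protocols. The authors deposited 2 tables of FPKM per gene and library, each scaled on its own; the unit is taken from the tools and the values. Per the submitters' processing notes the tools included bcl2fastq 1.8.4, STAR 2.6.0a, Cufflinks 2.2.1 and Cuffdiff, and hg19 is the build they name, which is human although the symbols are of rat; settings are not given in the sources used here. Samples were grouped by their titles.

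Symbols turned into dates (25) were left out, leaving 17120 genes, of which 14497 symbols were current in RefSeq. No step of 1 read was found in the ratios of low values (at most 7.96% fell in any window of 1%), so whole reads were not recovered. Each table was fitted with limma 3.58.1 in R 4.3.3 on log2(FPKM + 1), with trend and robust variances, no covariate, and a minimum mean of 1 FPKM per gene, after a check on simulated data; this scale understates changes of low genes. Benjamini-Hochberg adjustment ran over all genes tested. In the sham table, FDG-increased columns carry their group but no sample. In the RYGB table the numbers of the titles paired the samples: same-numbered libraries gave correlations of deviations across genes of 0.845, 0.763 and 0.768, so a fit with the pair as a block is given beside results whose call or count it changes. Alternatives were the pseudocount, the filter, scaling, the block, trend, lane and leaving out each library.

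All members are described; of other lists, the called genes or the highest 3 and Lct, Gip, Fabp6 and Slc10a2, and the 3 nearest profiles of the 3 most variable members, of which 1 is not reported here. Further genes (Prdm1, Cubn and Asah2, called with the block, and Col1a1, Col1a2 and single markers) were chosen after their values were seen. Members and lists were chosen with earlier results of these data known. Figures were drawn with matplotlib 3.10.9.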

Additional observations from a re-analysis of the deposited data

How the results depend on the processing

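The count of members called stayed at 0 in both comparisons under every alternative run except leaving out a library in the sham table, where it ranged from 0 to 1 (Hoxb9, called without sham 3). Gata4, Gata5 and Hoxb9 kept their direction in all 16 alternatives of FDG-increased against sham ileum and in all 14 of FDG-decreased against FDG-increased ileum, and so did Hnf4g between the RYGB groups. The count of all genes called by limma in FDG-increased against sham ileum, 4, became 1 with a pseudocount of 0.1, 0 with no filter on low values, 1 with a median shift, 0 with quantile normalization and 0 with lane 7 alone by column number (an alternative chosen after seeing the data), and ranged from 0 to 13 when each library was left out; 847 genes had an unadjusted limma p under 0.05. In FDG-decreased against FDG-increased ileum it was 0, with 110 at an unadjusted limma p under 0.05, and 0 to 1 with each library left out. The replicate block raised it from 0 to 122 there. In the sham table same-numbered libraries gave correlations of 0.35, -0.498 and -0.246, so the numbers share no more than a name; a replicate block by those numbers gave 39 genes and 0 members.

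Directions near 0 reversed, and their cause was not tested. In FDG-increased against sham ileum the log2 difference of Gata6 became -0.0033 with a median shift, -0.11 with quantile normalization, -0.41 with an epithelial marker shift and -0.080 without sham 2, with a highest value of 0.27 when each library was left out. That of Cdx2 became -0.22 with quantile normalization, -0.40 with the epithelial shift and -0.062 without sham 2, with a highest of 0.38 when each library was left out. That of Hnf4a became -0.23, -0.36 and, with lane 7 by column number, -0.091, and that of Hnf4g -0.16 with the epithelial shift. That shift moved the median over all genes from 0.13 to -0.41, and genes at an unadjusted limma p under 0.05 split into 103 higher and 1235 lower, against 664 and 183. In FDG-decreased against FDG-increased ileum the epithelial shift gave 0.0018 for Gata6, 0.068 for Cdx2 and 0.028 for Hnf4a. Without FDG-decreased 2 Gata6 was 0.072; without FDG-decreased 3 Cdx2 was 0.0065 and Hnf4a 0.077. The lowest values with a library left out were -0.24 for Gata6, -0.10 for Cdx2 and -0.22 for Hnf4a. Without library B Gata6 was 0.052, Cdx2 0.095 and Hnf4a 0.057, and without library C Hnf4a was 0.0056. For FDG-decreased against sham ileum, values without the factor, and values without sham 1 (an alternative added after seeing the data), moved by less than the larger SD of the groups, though Gata4, Gata5, Cdx2 and Pdx1 changed sign without sham 1. A lane 7 fit takes its lone FDG-increased library to vary like the sham libraries, and none could be fitted in the RYGB table. Unknown read depth limits every low value, Pdx1 above all.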
